A study of Drosophila melanogaster with 9 samples.

Results

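The X chromosome of the fruit fly carries a large share of the genes expressed in the head, and 1540 X-linked genes are described here in 2 mutants of the histone demethylase KDM5. They are all genes assigned to the X, out of 2611 X genes and 17478 genes in all, whose mean normalized count over the libraries was at least 50, without the RNA genes roX1 and roX2. The reference set was the 5746 genes of the autosomal arms 2L, 3L and 3R that reached the same count. The question is whether the level of the X as a whole differs between either mutant and wild type. The genes were chosen by their chromosome and by that measured mean count, not by a fold change, except that roX1 and roX2 were left out with their changes known.

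Messenger RNA was sequenced from whole heads of adult flies aged 3 to 5 days, in 3 libraries each of kdm5[A512P], kdm5[JmjC*] and wild-type (WT) flies. The A512P allele exchanges 1 amino acid, alanine for proline, after an intellectual disability allele of the human gene KDM5C, and the JmjC* protein lacks demethylase activity. The labels give neither the sex of the flies nor whether replicate libraries stem from separate cultures. The p-values then measure the spread between libraries, which may be technical. In bulk tissue, fewer cells of a type and less RNA per cell cannot be told apart.

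Male flies have a single X and raise its output to match the pair in females. In males the MSL complex, built from the proteins MSL1, MSL2, MSL3, MLE and the histone acetyltransferase MOF with the non-coding RNAs roX1 and roX2, coats the X and acetylates histone H4 there. Females block the complex through the RNA-binding protein Sxl, which represses msl-2 translation. A change in the output of this system acts on the chromosome as a whole, so the fold changes of X-linked genes are set here against autosomal genes of like expression.

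All values rest on the authors' deposited tables of log2 fold changes, mutant over WT, with their standard errors (SE) and adjusted p-values, where a gene with an adjusted p under 0.05 in the authors' DESeq2 Wald test is called changed. Genes with almost no counts, such as sisA at a mean normalized count of 0.645, had SEs as small as 0.065 in the authors' deposited tables, as values shrunken towards 0 do, so changes of such genes may be understated. Values and depth of single libraries were not used here. Summed over all genes the mean normalized counts came to 35167778, of which the 1540 X genes held 18.8%. The median SE of a log2 fold change among the X genes was 0.107 in each comparison. Markers of neurons, glia and photoreceptors were all present, the lowest being the glial gene repo at a mean normalized count of 2184, while the germline genes vas, nos, osk and bam lay at or under a mean normalized count of 20.6. Of 3 markers of the fat body of the head, Lsp2 lay at 3221 and the gene to at 1756, while Fbp1 lay at only 15.7. The highest mean normalized count among 113 Y-linked genes was 42.9. The summed level of the 3 yolk protein genes, transcribed mainly in females, took 5.44% of all normalized counts.

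In A512P heads the X as a whole stood close to the autosomes. The median log2 fold change of the 1540 X genes was -0.0049, against -0.015 for the 5746 autosomal genes, and the quartiles were -0.14 and 0.14 on the X and -0.17 and 0.14 on the autosomes. Because weakly and strongly expressed genes differ in their fold changes, both sets were also compared within 5 ranges of mean normalized count, weighted by the number of X genes in each. At matched expression the median was 0.0080 on the X and -0.013 on the autosomes, a difference of 0.021 on the log2 scale, or 1.47%. Genes are not replicates, so it was given no test.

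**Figure D1:**
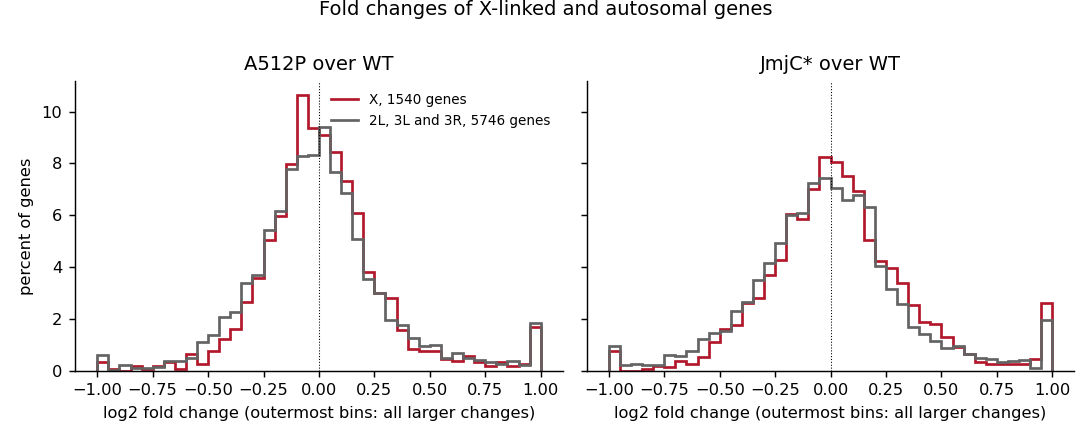
Percent of genes (vertical axis) by log2 fold change (horizontal axis, bins of 0.05, with the outermost bins holding all larger changes) for X genes in red and genes of 2L, 3L and 3R in grey, in A512P (left) and JmjC* (right). The outlines overlap over most of their width, and the 5th percentile is -0.36 on the X and -0.45 on the autosomes in A512P, and -0.45 on the X and -0.55 on the autosomes in JmjC*.

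In JmjC* heads the X stood slightly above the autosomes. The median log2 fold change was 0.016 on the X and -0.018 on the autosomes, and 52.7% of X genes had a positive value against 47.5% of autosomal genes. At matched expression the X median was 0.028 and the autosomal median -0.015, a difference of 0.043 on the log2 scale, or 3.05%. A doubling of the X would be a shift of 1 on this scale.

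The difference was largest among weakly expressed genes. At mean normalized counts of 50 to 100, the 69 X genes had a median log2 fold change of 0.19 in A512P, against 0.058 for 399 autosomal genes. The same 69 genes had a median of 0.19 in JmjC*, against 0.039 for the autosomal genes. Close to the limit of 50, a gene can be included because of its change. A group level, rebuilt as described below, lay under 50 in at least 1 group for 24 of the 1540 X genes. The same held for 114 of the 5746 autosomal genes. The part of the limit in this gap was not tested. Between 1000 and 3000 counts the X-minus-autosome difference shrank to 0.00059 in A512P and was 0.032 in JmjC* (443 X genes and 1499 autosomal genes). At 3000 counts and over, both sets lay below 0: the X median was -0.069 in A512P, against -0.090 on the autosomes, and -0.071 in JmjC*, against -0.11 on the autosomes. The X difference was positive in each of the 5 ranges in both mutants.

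**Figure D2:**
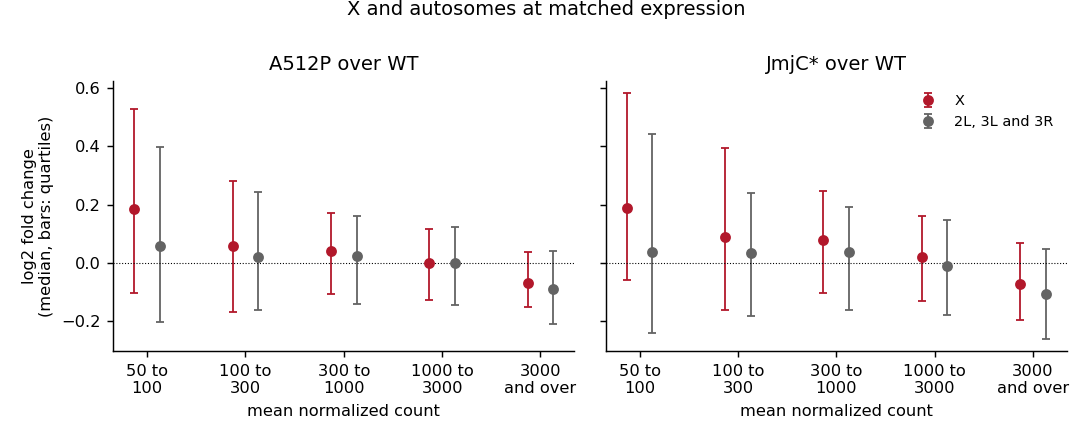
Median log2 fold change (points) with lower and upper quartiles (bars) in 5 ranges of mean normalized count, for X genes (red) and genes of 2L, 3L and 3R (grey), in A512P (left) and JmjC* (right). X medians lie at or above the autosomal medians in each range, with the widest gap at 50 to 100 counts, where the X median is 0.19 in both mutants. Close to 50 counts, a gene can be included because of its change.

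As a yardstick, each of the 3 autosomal arms was compared with the other 2 arms in the same way. In A512P these shifts were 0.0066 for 2L, 0.00061 for 3L and -0.0055 for 3R on the log2 scale. In JmjC* they were -0.0059 for 2L, 0.011 for 3L and -0.0043 for 3R. The SD over these 3 shifts was 0.0060 in A512P and 0.0095 in JmjC*, and the X shifts of 0.021 in A512P and 0.043 in JmjC* were further from 0 than each of them. Arm 2R, set against the same 3 arms, stood at 0.00079 in A512P and 0.0037 in JmjC*. Chromosome 4, with 90 genes, shifted further than the X, by 0.083 in A512P and by -0.056 in JmjC*.

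**Figure D3:**
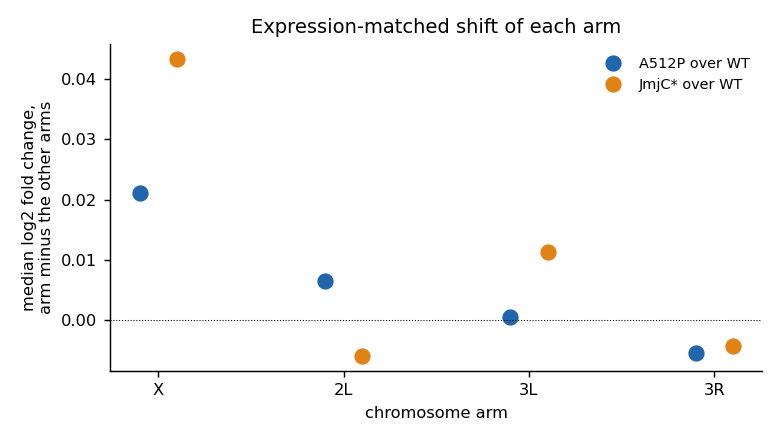
Expression-matched median log2 fold change of each chromosome arm minus that of the other autosomal arms (vertical axis), with 1 point per mutant and no error bar. The X stands at 0.021 in A512P and 0.043 in JmjC*, and 2L, 3L and 3R lie between -0.0059 and 0.011.

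Group levels of the X and the autosomes lay close together. A level in each group was rebuilt from the mean normalized count and both fold changes, on the assumption that the mean weights the 3 groups equally. Per kilobase of exon, the median X gene then stood at 462 normalized counts in A512P, 467 in JmjC* and 460 in WT. The median autosomal gene stood at 473 in A512P, 473 in JmjC* and 471 in WT. The ratio of the X to the autosomal median was 0.976 in A512P, 0.989 in JmjC* and 0.977 in WT. When counts were summed instead, so that abundant genes weigh most, the X sum was 0.359 of the autosomal sum in A512P, 0.335 in JmjC* and 0.340 in WT. Yp1, Yp2 and Yp3, which encode the yolk proteins and all lie on the X, held 30.9% of the X sum in A512P, 25.7% in JmjC* and 29.8% in WT. Without those 3 genes the ratio of sums was 0.248 in A512P, 0.249 in JmjC* and 0.239 in WT. On this weighted scale the JmjC* difference from WT changed sign, with a log2 value of -0.021 with the yolk protein genes and 0.060 without them.

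The counts of changed genes gave the size of the response within the X. In the authors' deposited table for A512P, 306 of 1539 tested X genes were called (19.9%), of which 157 rose (10.2%) and 149 fell (9.68%). Over all 11608 tested genes, 21.0% were called, 10.2% higher and 10.8% lower. Among the autosomal genes 10.6% were called higher and 13.8% lower, and weighting the autosomes to the expression of the X gave 10.2% higher and 14.2% lower. The share of X genes that rose was thus near the background, and the share that fell was below that of the autosomes. For JmjC*, 485 X genes were called (31.5%), of which 266 rose (17.3%) and 219 fell (14.2%) in the authors' deposited table. Over all 11898 tested genes, 28.8% were called, 14.2% higher and 14.6% lower. The autosomal genes gave 14.3% higher and 18.7% lower, or 13.9% and 19.2% weighted to the expression of the X. In JmjC* the X thus had a larger share of rises and a smaller share of falls than the autosomes.

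Changes of single X genes were small. The called X genes had a median fold change of 1.33 in each mutant. At least 2-fold changes were seen in 27 X genes in A512P, of which 22 rose and 5 fell, and in 50 in JmjC*, of which 38 rose and 12 fell. At least 2-fold rises made up 1.43% of X genes in A512P, against 1.43% of expression-weighted autosomal genes. The same rises made up 2.47% of X genes in JmjC*, against 1.57% of autosomal genes. At least 2-fold falls made up 0.325% of X genes in A512P, against 0.423% of expression-weighted autosomal genes. In JmjC* such falls made up 0.780% of X genes, against 0.819% of autosomal genes, so they were near the background. The 54 X genes annotated as non-coding RNAs or pseudogenes gave 15 rises and 3 falls in A512P, against 31 rises and 12 falls among 131 such autosomal genes. In JmjC* they gave 16 rises and 7 falls, against 29 rises and 25 falls on the autosomes. Over all tested genes 10.2% rose and 10.8% fell in A512P, and 14.2% rose and 14.6% fell in JmjC*. In this class rises thus outnumbered falls on the autosomes as well as on the X. The class was not matched by expression.

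The longest genes lay lower than the other length classes on both the X and the autosomes. Genes were split by exon length into 4 classes, and in the longest class 464 X genes had a median log2 fold change of -0.061 in A512P, against -0.086 for 1358 autosomal genes. In JmjC* the medians of that class were -0.050 on the X and -0.084 on the autosomes. In the next shorter class, X genes that rose numbered 101 of 392 in JmjC*, where 48 fell, and autosomal genes that rose numbered 233 of 1431, where 281 fell. That class had the most X rises in JmjC*, with medians of 0.038 on the X and -0.011 on the autosomes. Over all tested genes 14.2% rose and 14.6% fell in JmjC*. In A512P 47 X genes of that class rose and 40 fell, against 151 and 236 on the autosomes. In the longest class 49 X genes rose and 91 fell in JmjC*, against 169 and 319 on the autosomes. The classes were not matched by expression. In the shortest class the JmjC* medians were 0.032 on the X and -0.010 on the autosomes. The second shortest class was the highest, at 0.084 on the X and 0.043 on the autosomes, so no steady trend with length was seen.

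Position along the X was examined in windows of 1 Mb, for the 1514 X genes found in the Ensembl annotation of BDGP6.54. In the 22 windows with at least 20 genes, the median log2 fold change ranged between -0.077 and 0.082 in A512P and between -0.063 and 0.12 in JmjC*. The windows above 0 numbered 9 of 22 on the X and 26 of 74 on the autosomes in A512P, and 15 of 22 on the X and 28 of 74 on the autosomes in JmjC*. Windows of the 3 autosomal arms, 74 in all, covered a wider range, between -0.18 and 0.096 in A512P and between -0.15 and 0.074 in JmjC*. The SD over windows was 0.039 on the X and 0.040 on the autosomes in A512P, and 0.045 on the X and 0.049 on the autosomes in JmjC*. The highest X window in JmjC* covered 1 to 2 Mb (76 genes, median 0.12), and in A512P that window stood at 0.025. The window between 5 and 6 Mb was the highest in A512P (69 genes, 0.082) and stood at 0.10 in JmjC*.

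**Figure D4:**
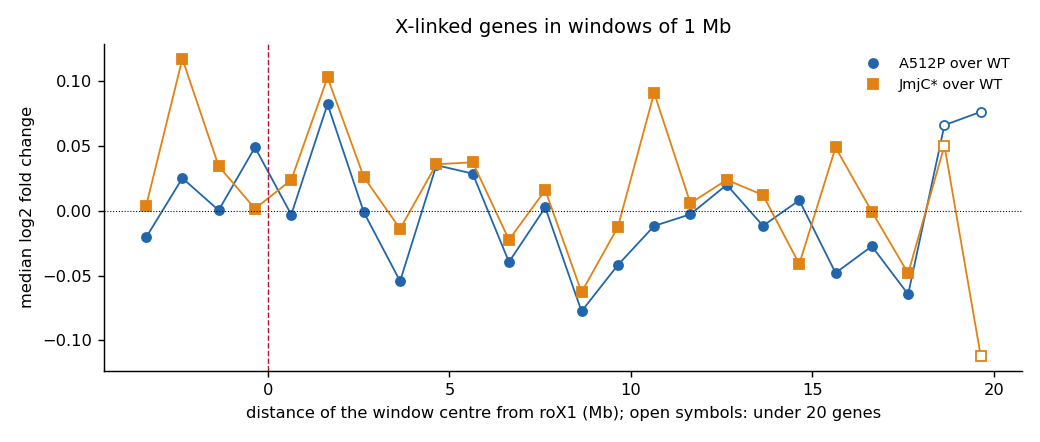
Median log2 fold change of X genes in windows of 1 Mb (vertical axis) against the distance of the window's centre from roX1 (horizontal axis, Mb, dashed line at roX1), in A512P (blue circles) and JmjC* (orange squares), which share the WT libraries. Medians scatter around 0 along the whole chromosome, between -0.077 and 0.12 in windows of 20 genes or more (filled symbols).

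Both roX genes lie on the X and were left out of the set. In the authors' deposited tables roX1 (FBgn0019661; BDGP6.54, X, 3857230 to 3862697, minus strand) had a log2 fold change of 3.77 ± 0.11 in A512P (adjusted p = 3.89e-241) and 4.20 ± 0.11 in JmjC* (adjusted p = 1.51e-300). Its rebuilt level was 7658 normalized counts in A512P, 10333 in JmjC* and 562 in WT. Its partner roX2 (X, 11579065 to 11580432), which in males is a major RNA of the complex, had a mean normalized count of only 5.48. The RNA roX2 stood at log2 -0.17 ± 0.19 in A512P (adjusted p = 0.569) and 0.26 ± 0.19 in JmjC* (adjusted p = 0.329) in the authors' deposited tables. The rise of roX1 was thus measured in heads with very little roX2, and the part of the sex of the flies in these values was not tested.

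Genes around roX1 changed far less than roX1 itself. Of 10 X genes whose midpoint lay within 0.1 Mb of roX1, 1 rose and 1 fell in A512P, and the median log2 fold change was 0.11. In JmjC* 2 rose and 1 fell, with a median of 0.038. These shares called, 20% in A512P and 30% in JmjC*, were near those of all tested genes, 21.0% in A512P and 28.8% in JmjC*. The nearest neighbour in the same orientation, yin, an oligopeptide transporter gene 268 bases away, rose by 0.32 ± 0.083 in A512P and 0.31 ± 0.083 in JmjC* on the log2 scale of the authors' deposited tables. CG2930 overlaps yin by 2967 bases on the other strand. The gene ec, a ubiquitin protease gene on the other strand, overlaps roX1 by 392 bases and stood at log2 0.18 in A512P and 0.33 in JmjC* in the authors' deposited tables, the second past the threshold. It is not stated whether reads were counted by strand, so reads of these overlaps cannot be told apart. CG42541, 28.8 kb from roX1, fell by 0.34 in A512P and 0.38 in JmjC* on the log2 scale of the authors' deposited tables.

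Around roX2, 19 X genes lay within 0.1 Mb, of which 3 rose and 3 fell in A512P, and 4 rose and 2 fell in JmjC*. The share called there was 31.6% in each mutant, against 21.0% of all tested genes in A512P and 28.8% in JmjC*. The largest changes there were those of nod and PGRP-SA. The kinesin-like gene nod, used in chromosome segregation and 339 bases from roX2, rose by 0.96 ± 0.15 in A512P and 1.13 ± 0.15 in JmjC* on the log2 scale of the authors' deposited tables. CG1561 lies on the other strand within nod and was counted at 31970, far above the 186 of nod, so the value of nod is uncertain. PGRP-SA, a peptidoglycan receptor of the Toll pathway, rose by 0.81 ± 0.17 in A512P and 1.15 ± 0.17 in JmjC* on the log2 scale of the authors' deposited tables. The neighbouring RpII215, the largest subunit of RNA polymerase II, stood at log2 -0.035 in A512P and -0.016 in JmjC* in the authors' deposited tables. Genes near roX1 and roX2 were named by their position, outside the rule for named genes.

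The other dosage compensation genes changed little. Of 15 genes of this list, in the authors' deposited tables roX1 rose and Clamp fell in A512P, and roX1 and mof rose and Clamp fell in JmjC*. The acetyltransferase gene mof, itself X-linked (X, 5873840 to 5876853), stood at log2 0.29 ± 0.11 in A512P (adjusted p = 0.0523) and rose by 0.58 ± 0.11 in JmjC* (adjusted p = 3.11e-06) in the authors' deposited tables. Its difference between the mutants was -0.30 and did not pass (adjusted p = 0.9997). Clamp, an autosomal zinc-finger protein that binds GA repeats on the X, fell by 0.21 in A512P and 0.20 in JmjC* on the log2 scale of the authors' deposited tables. The complex genes msl-1, msl-2, msl-3 and mle lay between log2 -0.027 and 0.012 in A512P, and between -0.026 and 0.042 in JmjC*, none past the threshold in the authors' deposited tables. Among the X-linked genes of the sex signal, Sxl, snf, run and nej did not pass in either of the authors' deposited tables, and the other 3 of its 8 genes, sisA, sc and upd1, were below 50 counts.

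Some groups of X genes stood further from 0 than the X as a whole. Of 15 X-linked channel and receptor genes, 4 fell and 0 rose in A512P, with a median log2 fold change of -0.18. Over all tested genes 10.8% fell in A512P, and the median was 0.0027. In JmjC* 7 fell and 0 rose, with a median of -0.20. Over all tested genes 14.6% fell in JmjC*, and the median was 0.011. Pdfr, through which clock neurons sense the peptide PDF, fell by 0.36 ± 0.079 in A512P and 0.30 ± 0.079 in JmjC* on the log2 scale of the authors' deposited tables. Neto, an auxiliary protein of glutamate receptors, stood at log2 -0.23 in A512P and fell by 0.52 ± 0.13 in JmjC* in the authors' deposited tables. Ork1, a potassium leak channel, stood at log2 -0.060 in A512P and fell by 0.49 ± 0.15 in JmjC* in the authors' deposited tables. The list also holds sesB, the mitochondrial ADP/ATP carrier, which fell by 0.21 in A512P and 0.43 in JmjC* on the log2 scale of the authors' deposited tables, and norpA, the phospholipase C of the eye. The classical channel genes para, cac, Sh and eag lay between log2 -0.20 and -0.09 in both mutants and did not pass in the authors' deposited tables.

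Neuronal and synaptic genes of the X gave 8 falls and 0 rises among 27 in A512P (median log2 fold change -0.14), and 9 falls and 2 rises in JmjC* (median -0.13). All tested genes gave 10.8% falls and a median of 0.0027 in A512P, and 14.6% falls and a median of 0.011 in JmjC*. Neither this list nor that of the channels was matched by expression, and some of the genes were abundant, such as Appl at 28012. The 411 X genes at 3000 counts and over gave 50 falls and a median of -0.069 in A512P. In JmjC* they gave 87 falls and a median of -0.071. The NSF gene comt, which recycles vesicle fusion complexes, fell by 0.23 ± 0.070 in A512P and 0.32 ± 0.070 in JmjC* on the log2 scale of the authors' deposited tables. The dynamin gene shi, needed for vesicle retrieval, fell by 0.29 ± 0.095 in A512P and 0.38 ± 0.095 in JmjC* on the log2 scale of the authors' deposited tables. The microtubule-associated protein gene futsch fell by 0.38 in A512P and 0.46 in JmjC*, and Appl, the amyloid precursor orthologue, by 0.25 and 0.35, on the log2 scale of the authors' deposited tables. The pan-neuronal gene elav stood at log2 0.030 in A512P and -0.033 in JmjC* in the authors' deposited tables. The largest fall in A512P was that of the clock gene per, named outside the rule, at log2 -0.79 ± 0.23 in A512P and -0.56 ± 0.23 in JmjC* in the authors' deposited tables. Photoreceptor markers moved too: 4 of 4 fell in A512P and 1 of 4 in JmjC*, and their summed rebuilt level was 908456 normalized counts in A512P, 987881 in JmjC* and 1076069 in WT, with no marker at 0. Of the 4 glial markers repo and Eaat1 fell in each mutant and moody rose in JmjC*, and their summed level was 22095 in A512P, 21007 in JmjC* and 25508 in WT. Of the 4 blood cell markers Hml and He rose in each mutant, with summed levels of 17448 in A512P, 19391 in JmjC* and 15435 in WT. Of the 4 neuronal markers nSyb fell in each mutant, and they summed to 116116 in A512P, 113628 in JmjC* and 131391 in WT. Of the 3 fat body markers only the gene to was called, with a fall in JmjC*. Their summed level was 5625 in A512P, 4550 in JmjC* and 4802 in WT. Of the 4 weakly counted germline markers only vas was called, with a rise of 1.03 in JmjC* on the log2 scale. Their summed level was 25.8 in A512P, 39.8 in JmjC* and 24.2 in WT. The part of cell composition in these changes was not tested.

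Gap junction channels are built of innexins, of which 4 on the X were expressed at 50 counts or more. In JmjC* 3 of them fell and 1 rose, and in A512P 1 rose, where all tested genes gave 14.6% falls in JmjC* and 10.2% rises in A512P. Inx7 rose by 0.85 ± 0.16 in A512P and 1.10 ± 0.16 in JmjC* on the log2 scale of the authors' deposited tables. shakB, which builds electrical synapses of the giant fibre, stood at log2 -0.27 in A512P and fell by 0.48 in JmjC* in the authors' deposited tables.

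Of 20 signalling genes of the X, 0 rose and 2 fell in A512P, and 0 rose and 3 fell in JmjC*, with medians of -0.012 in A512P and 0.041 in JmjC*. The falls were near the background of 10.8% in A512P and 14.6% in JmjC* over all tested genes. The homeodomain gene ct fell by 0.33 in A512P and 0.28 in JmjC* on the log2 scale of the authors' deposited tables. Another homeodomain gene, oc, stood at log2 -0.21 in A512P and fell by 0.33 in JmjC* in the authors' deposited tables. Hsp60, a mitochondrial chaperone that was placed in this list, was the third gene to fall in JmjC*.

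Among 11 pigment and metabolic enzyme genes, 1 rose and 1 fell in A512P, and 2 rose and 1 fell in JmjC*. The calls were near the background of 21.0% in A512P and 28.8% in JmjC* over all tested genes. The gene ras, which encodes IMP dehydrogenase of guanine nucleotide synthesis, fell by 0.35 ± 0.065 in A512P and 0.24 ± 0.065 in JmjC* on the log2 scale of the authors' deposited tables. The pyrimidine synthesis gene r stood at log2 0.094 in A512P and rose by 0.53 ± 0.11 in JmjC* in the authors' deposited tables. The eye pigment transporter gene w stood at log2 -0.083 in A512P and 0.068 in JmjC* in the authors' deposited tables, neither past the threshold.

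Gene families with members on both the X and the autosomes allow a comparison within a function. The members were taken by pattern, which can also take genes outside a family. The pattern for cytosolic ribosomal proteins also took the autosomal gene qm, so the autosomal counts may not be pure. Of 15 X-linked cytosolic ribosomal protein genes, 10 fell and 0 rose in A512P, with a median log2 fold change of -0.33, against 40 falls and a median of -0.37 for 48 autosomal members. In JmjC* 13 fell and 0 rose on the X, with a median of -0.38, against 46 falls and a median of -0.40 on the autosomes. The gene sta, of the small subunit, fell by 0.56 ± 0.10 in A512P and 0.59 ± 0.10 in JmjC* on the log2 scale of the authors' deposited tables. RpS6 fell by 0.46 in A512P and 0.55 in JmjC* on the log2 scale of the authors' deposited tables. The medians of X-linked and autosomal members thus lay within a few hundredths of each other, while the X-linked members ranged between -0.56 and -0.19 in A512P and between -0.59 and -0.24 in JmjC*.

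Mitochondrial ribosomal protein genes on the X, 11 in number, gave 0 calls in either mutant by the authors' test, with medians of -0.068 in A512P and 0.0074 in JmjC*. Their 50 autosomal counterparts gave 4 falls and a median of -0.074 in A512P, and 6 falls and a median of -0.13 in JmjC*. Of 3 dpr genes on the X, cell surface proteins of synaptic matching, 2 fell in each mutant, and of 13 on the autosomes 11 fell in A512P and 13 in JmjC*. dpr8 fell by 0.38 in A512P and 0.43 in JmjC* on the log2 scale of the authors' deposited tables. Proteasome genes gave 0 calls among 4 on the X, with medians of 0.10 in A512P and 0.20 in JmjC*, and 0 among 18 on the autosomes, with medians of 0.077 in A512P and 0.13 in JmjC*. Of 2 vacuolar ATPase genes on the X, 1 fell in A512P and 2 in JmjC*, against 3 falls in A512P and 5 in JmjC* among 14 on the autosomes. The single X-linked cuticle gene was not called in either mutant. Of 15 on the autosomes 8 rose in A512P (median 0.80) and 9 in JmjC* (median 0.56). The pattern for cuticle genes also took the autosomal gene Cpr, so these autosomal counts may hold a gene outside the family. The 3 aminoacyl-tRNA synthetase genes on the X were not called by the authors' test, and of 14 on the autosomes 3 fell in A512P, and 4 fell and 1 rose in JmjC*. Of 2 heat shock genes on the X, Hsp60 fell in JmjC*, and of 12 on the autosomes 2 rose and 2 fell in A512P, and 2 rose and 1 fell in JmjC*.

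Cytochrome P450 genes had lower medians on the X than on 2L, 3L and 3R. The many members on 2R are not in this comparison. The symbol pattern took 15 X genes, among them Cyp1, which is a cyclophilin. The family list also holds the autosomal gene CG8336, so the autosomal counts may hold a gene outside the family. In A512P 1 rose and 3 fell on the X, with a median of -0.13, against 8 rises, 1 fall and a median of 0.22 for 28 autosomal genes. In JmjC* 1 rose and 2 fell on the X, with a median of -0.12, against 12 rises, 6 falls and a median of 0.13 on the autosomes. The shares called among these 15 X genes were 26.7% in A512P and 20% in JmjC*. Over all tested genes they were 21.0% in A512P and 28.8% in JmjC*. Cyp4d1 fell by 0.84 ± 0.22 in A512P and 1.08 ± 0.22 in JmjC*, while its relative Cyp4d14 rose by 0.67 in A512P and 0.66 in JmjC*, on the log2 scale of the authors' deposited tables.

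Single X genes changed far more than the chromosome. Cyp4s3 (FBgn0030615; X, 15113302 to 15116542) had a rebuilt level of 38.4 normalized counts in A512P and 43.4 in JmjC*, against 282 in WT. It was 7.35-fold lower in A512P and 6.50-fold lower in JmjC* in the authors' deposited tables. SPR, the receptor of the sex peptide and of myoinhibitory peptides, fell by 0.94 ± 0.11 in A512P and 1.32 ± 0.11 in JmjC* on the log2 scale of the authors' deposited tables. CG14196 fell by 1.34 ± 0.11 in A512P and 1.46 ± 0.11 in JmjC*, and CG1628 by 1.28 ± 0.18 and 1.69 ± 0.18, on the log2 scale of the authors' deposited tables. CG9676 and CG14221 each fell by 1.11 in A512P, and by 1.21 and 1.33 in JmjC*, on the log2 scale of the authors' deposited tables. Antdh, listed as antdh, a dehydrogenase of the antenna, fell by 0.81 ± 0.12 in A512P and 0.44 ± 0.12 in JmjC* on the log2 scale of the authors' deposited tables. The pseudogene CR18275 fell by 0.67 in A512P and 1.33 in JmjC*, and CG12655 by 0.80 and 1.37, on the log2 scale of the authors' deposited tables.

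Among the rises, CG11409 (X, 1329518 to 1341587) had a rebuilt level of 564 normalized counts in A512P and 600 in JmjC*, against 158 in WT. The gene rose by 1.83 ± 0.13 in A512P (adjusted p = 1.08e-45) and 1.92 ± 0.12 in JmjC* (adjusted p = 1.32e-50) on the log2 scale of the authors' deposited tables. CBP, a calcium-binding protein gene, rose by 1.46 ± 0.15 in A512P and 2.06 ± 0.15 in JmjC* on the log2 scale of the authors' deposited tables, the largest rise in JmjC* among the 1540 X genes, which leave out roX1. CG5172 rose by 1.73 in A512P and 1.62 in JmjC*, and its neighbour CG34327, which ends 316 bases away on the other strand, by 1.49 and 1.17, on the log2 scale of the authors' deposited tables. CG3777 rose by 1.63 in A512P and 1.39 in JmjC*, and CG12206 by 1.70 and 0.93, on the log2 scale of the authors' deposited tables. In A512P, cyr followed at log2 1.46 in the authors' deposited table and rose by 1.12 in JmjC*. In JmjC*, Fcp3C, a follicle cell protein gene, rose by 1.68, CG6891 by 1.70, CG3603 by 1.55 and CG12985 by 1.47 on the log2 scale of the authors' deposited table. These 4 genes also rose in A512P, in that order by 1.07, 0.79, 1.004 and 1.16 on the log2 scale of the authors' deposited table.

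**Figure D5:**
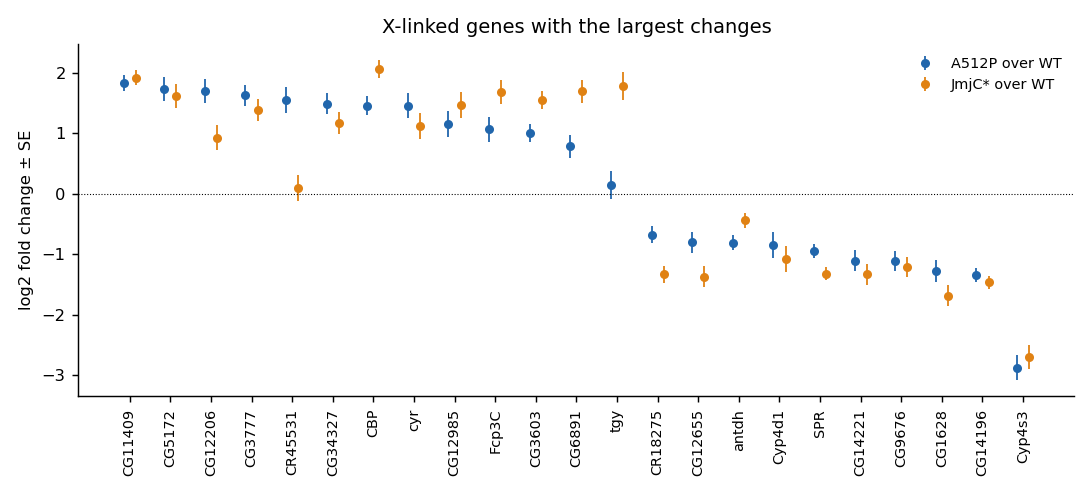
Log2 fold change with SE (vertical axis) of the 23 X genes with the 8 largest rises or falls in either mutant, ordered by their value in A512P, with A512P in blue and JmjC* in orange. Cyp4s3 is lowest in both mutants, and tgy and CR45531 are the genes whose values in the mutants lie furthest apart.

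Few X genes were called different between the mutants, by a test whose SE is an upper bound. The difference of log2 fold changes, A512P minus JmjC*, was called at 9 of 1539 X genes (0.585%), 3 higher (0.195%) and 6 lower (0.390%). Each difference was set against the root of its summed squared SEs in a normal test, two-sided, and adjusted by Benjamini-Hochberg among 11608 genes. The background was 0.879% of all tested genes, 0.465% higher and 0.414% lower, and for the autosomal genes 0.749% higher and 0.383% lower. The SE used is an upper bound, because both comparisons share the WT libraries, and with an assumed correlation of 0.5 the count was 50. No share over all tested genes was computed at that SE, so the count of 50 has no background beside it. At matched expression the median difference was -0.028 on the X and 0.0032 on the autosomes. The gene tgy stood at log2 0.15 ± 0.23 in A512P and 1.78 ± 0.23 in JmjC* in the authors' deposited tables, a difference of -1.63 ± 0.33 (adjusted p = 1.61e-04). The non-coding RNA CR45531 was the reverse, at 1.55 ± 0.22 in A512P and 0.094 ± 0.22 in JmjC* in the authors' deposited tables, a difference of 1.45 ± 0.31 (adjusted p = 4.91e-04). The gene cib, an actin-binding protein of the brain, stood at log2 -0.12 in A512P and 0.60 in JmjC* in the authors' deposited tables (difference -0.72 ± 0.15, adjusted p = 2.37e-04). Both tgy and CR45531 reached the limit of 50 counts only through the mutant in which they were high: the rebuilt level of tgy was 34.4 in A512P, 107 in JmjC* and 31.1 in WT, and that of CR45531 was 93.7 in A512P, 34.2 in JmjC* and 32.0 in WT. Their membership thus depended on the change, and they are no support for a difference of the X. Both are counted among the 9 called genes. The adhesion gene kirre fell in A512P, at log2 -0.36 ± 0.10, and rose in JmjC*, at 0.27 ± 0.10, in the authors' deposited tables (difference -0.63 ± 0.14, adjusted p = 0.00250).

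Of the 10 most abundant X genes, taken by level and outside the rule for named genes, 4 passed in A512P and 3 in JmjC*. The share called over all tested genes was 21.0% in A512P and 28.8% in JmjC*. Among X genes at 3000 counts and over it was 18.2% in A512P and 30.7% in JmjC*. Yp1, Yp2 and Yp3 stood at log2 -0.064, 0.25 and -0.074 in A512P, and at -0.38, -0.24 and -0.42 in JmjC*, in the authors' deposited tables, with SEs between 0.21 and 0.22 and none past the threshold. The next gene, CG2233, with a mean normalized count of 94272, rose by 0.73 ± 0.22 in A512P and stood at 0.48 ± 0.22 in JmjC* (adjusted p = 0.0907) on the log2 scale of the authors' deposited tables. The next genes were norpA, which fell by 0.23 ± 0.085 in A512P and stood at log2 -0.19 in JmjC* in the authors' deposited tables, and sesB, given above. After them, the ribosomal protein gene RpL7A fell by 0.37 in A512P and 0.43 in JmjC* on the log2 scale of the authors' deposited tables. Gs2, a glutamine synthetase of glia, stood at log2 -0.10 in A512P and fell by 0.18 ± 0.070 in JmjC* in the authors' deposited tables. The iron carrier gene Tsf1 stood at log2 0.22 ± 0.23 in A512P and 0.47 ± 0.23 in JmjC* in the authors' deposited tables, neither past the threshold.

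At the limit of 50 counts, CR43838, CG32551 and CR45531 were just inside, with mean normalized counts of 51.2, 51.6 and 53.3. CG15332, CR44816 and CG32536 were just outside, at 49.8, 48.4 and 48.3. In all, 1070 X genes lay under the limit. Among the 1540, 24 had a rebuilt level under 50 in at least 1 group, against 114 of the 5746 autosomal genes. A WT level under 50 was found for 12 of the 157 X genes that rose in A512P and 13 of the 266 that rose in JmjC*, among them cyr, Fcp3C, CG6891, CG12985 and Cyp4d14. A mutant level under 50 was found for 1 of the 149 X genes that fell in A512P, which is Cyp4s3, and for 4 of the 219 that fell in JmjC*.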

How the data were processed

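Libraries from 9 head samples (3 per group) were made from 500 ng of total RNA with a stranded mRNA kit, amplified for 8 PCR cycles and sequenced as paired reads of 50 bases, per the labels' protocols. The submitters' processing notes name STAR and DESeq2, without versions, genome build or strand setting. The 2 tables hold 17478 genes each. The deposited signal is the mean normalized count (baseMean), identical in both tables for 17478 genes. The authors' log2 fold change, its SE, and p-values with adjusted p-values were read as deposited. The score in the authors' tables, a Wald statistic, was within 1.21e-13 of log2 fold change over SE. The direction, mutant over WT, was read from the tables' names. No count model was refitted, and the depth per library is unknown here, so precision is carried by the authors' SE.

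Computed here with Python 3.11.15, pandas 2.3.3, numpy 2.4.6 and scipy 1.17.1 were medians and counts by arm, expression-matched differences (ranges of baseMean starting at 50, 100, 300, 1000 and 3000), rebuilt group levels, and the direct difference of both mutants. The scripts were tested on simulated data. Of 17478 gene IDs, 17209 matched Ensembl release 115 (BDGP6.54), all on the same chromosome and 98.2% with identical exon length; 26 X genes had no match. Of the 1540 X genes 1539 had an adjusted p.

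Members, gene lists and rules were chosen with earlier results of these data known. Named genes were the 8 largest called rises and falls per mutant, the 4 largest called differences each way, up to 4 genes of each list by smallest adjusted p, and fixed dosage compensation and yolk genes. The symbols inaF and apolpp, the latter a planned fat body marker, were not matched, and Adgf-A is not on the X. Cuticle, heat shock, vacuolar ATPase and aminoacyl-tRNA synthetase genes on the X (1, 2, 2 and 3 genes) are given by counts only, and promoter motifs were not analysed here.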

Additional observations from a re-analysis of the deposited data

Results flagged for a closer look

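The effect of the allele differed between A512P and JmjC* at 9 X genes by the normal test of the difference of their log2 fold changes, adjusted over 11608 genes. The 6 genes lower in A512P than in JmjC* were tgy (difference -1.63), tyn, an apical matrix protein gene (-0.73), cib (-0.72), kirre (-0.63), sws, the orthologue of a neuropathy target esterase (-0.50), and CG4096 (-0.45). In the authors' deposited tables tyn stood at log2 0.71 ± 0.093 in A512P and 1.44 ± 0.092 in JmjC*, and sws at -0.11 ± 0.082 in A512P and 0.39 ± 0.082 in JmjC*. CG4096 stood at log2 0.31 ± 0.088 in A512P and 0.77 ± 0.087 in JmjC* in the authors' deposited tables. The gene tgy reached the minimum count only through its level in JmjC*. Its membership thus depended on its change, and tgy is no support for a difference of the X.

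The 3 genes higher in A512P than in JmjC* were CR45531 (difference 1.45), CG15199 (1.0002) and CG12239 (0.56). CR45531 reached the minimum count only through its level in A512P. Its membership thus depended on its change, and CR45531 is no support for a difference of the X. In the authors' deposited tables CG15199 stood at log2 1.37 ± 0.18 in A512P and 0.37 ± 0.18 in JmjC*, and CG12239 at -0.24 ± 0.076 in A512P and -0.79 ± 0.076 in JmjC*.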

How the results depend on the processing

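The X-minus-autosome median was recomputed under 19 alternatives per mutant and was judged against the SD of the 3 autosomal arms (0.0060 in A512P, 0.0095 in JmjC*, 0.0065 for their difference). It stayed within that spread under 14 alternatives in A512P and 15 in JmjC*, and under 14 of 17 for A512P minus JmjC*. It was positive under all 19 in A512P and under all but 1 in JmjC*. The A512P value of 0.021 became 0.014 with no minimum count, 0.011 with a minimum of 500, 0.0099 without expression ranges, and 0.080 weighted by abundance (0.057 without the yolk protein genes). The JmjC* value of 0.043 became 0.032 with no minimum count, 0.032 with a minimum of 500, and -0.021 weighted by abundance (0.060 without the yolk protein genes). The A512P minus JmjC* value of -0.031 became -0.023 with no minimum, -0.022 with a minimum of 500 and -0.024 without expression ranges. The cause of these moves was not tested.

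With at least a 1.5-fold change the X calls were 63 higher and 22 lower in A512P, and 81 higher and 31 lower in JmjC*. At an adjusted p under 0.01, 106 X genes were higher and 92 lower in A512P, and 196 were higher and 141 lower in JmjC*. Shares over all tested genes were not computed at that threshold. With an SE that takes out the shared WT variance (correlation of 0.5), 50 X genes differed between the mutants in place of 9. The share over all tested genes at that SE was not computed. No paired analysis was possible because the values used here are comparison tables with no value per library, and leaving out single replicates was not run for the same reason. Weakly expressed genes limit the precision: the median SE in A512P was 0.205 at 50 to 100 counts, against 0.0922 at 3000 counts and over.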
